A study of Mus musculus with 30 samples.

Results

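The 10 genes described here make or receive the prostaglandin and adenosine signals that are known for their roles in sleep: Ptgs1, Ptgs2, Ptgds, Ptgdr, Ptges, Ptger3, Ptger4, Adora1, Adora2a and Adora2b. They were chosen by name, from the gene symbols printed in the hypothalamus array files, as a pathway rather than by a threshold on their values, although with earlier results of these data known. They are 10 of the 28146 gene names on the array and are read by 18 of its 41174 probes. The same probes were followed in the eye by their probe identifiers.

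The arrays came from adult male mice that lacked functional Per3, a member of the period family of clock genes (Per3-/-), and from their WT littermates, all on a C57Bl/6J background. In the Per3-/- mice a PGK-NEO cassette stands in place of part of the gene in every cell. All mice of both genotypes had been kept through 17 cycles of 3.5 h of light and 3.5 h of dark and were killed in the light portion of the last cycle, so no group without this lighting was measured. Each array held Cy3-labelled total RNA from 1 mouse: 8 WT and 8 Per3-/- mice for a block of hypothalamus around the optic chiasm, and 7 WT and 7 Per3-/- mice for the whole eye, with 14 of the 16 mice present in both tissues. Both samples are mixtures of cell types, and in such bulk RNA fewer cells of a type and less RNA per cell cannot be told apart.

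Prostaglandins are made from arachidonic acid, which phospholipases free from membranes. The cyclooxygenases encoded by Ptgs1 and Ptgs2 turn it into prostaglandin H2, from which the synthases encoded by Ptgds and Ptges form prostaglandin D2 and prostaglandin E2. Prostaglandin D2 is known to promote sleep through its receptor Ptgdr, in the leptomeninges below the basal forebrain, and adenosine is thought to relay that signal through Adora2a, while Adora1 is the inhibitory adenosine receptor of most brain neurons. In the eye the same lipids act on intraocular pressure, blood vessels and inflammation, and adenosine acts in the retina.

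Each probe of the array is a 60-base DNA, and what a value says depends on where in a transcript that probe lies. The probes that the results turn on are therefore given here, 5′ to 3′ on the transcript strand, with positions on mouse build mm9 as the array files give them. The probe of Ptgds spans 2 exons between chr2:25322842-25323373 on the minus strand and is shown up to the stop codon of the protein, which is in capitals.
Ptgds A_51_P157406: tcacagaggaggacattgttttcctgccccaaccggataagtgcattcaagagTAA
The Ptgdr probe at chr14:45472957-45473016 ends in the letters TGA, in capitals, and is shown because its values below are background. Those letters are a stop codon only in the reading frame that ends with the probe, and 2 frames of the probe have no stop. Which frame is that of the protein was not determined.
Ptgdr A_52_P292354: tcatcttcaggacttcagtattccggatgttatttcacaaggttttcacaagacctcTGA
The probes of the adenosine receptors that lie in coding sequence are those of Adora1 at chr1:136099564-136099623, of Adora2a at chr10:74795972-74796031 and of Adora2b at chr11:62079096-62079155.
Adora1 A_51_P188845: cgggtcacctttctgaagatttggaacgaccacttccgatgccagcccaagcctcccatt
Adora2a A_52_P240878: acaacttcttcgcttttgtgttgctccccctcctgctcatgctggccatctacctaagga
Adora2b A_52_P419455: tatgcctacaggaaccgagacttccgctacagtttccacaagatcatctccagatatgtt
The second Adora2a probe begins 1379 bases further along the plus strand, at chr10:74797351-74797411, and its first 30 bases are shown because the 2 probes behaved differently.
Adora2a A_51_P387348: tgagtttagagacatcaagtcatggacccg
The 2 probes of Ptgs2 lie in the end of its transcript at chr1:151954744-151954803 and chr1:151954416-151954475, with 268 bases between them. A stretch of 30 bases of each is shown, and the capitals mark ATTTA, a motif known from unstable messages.
Ptgs2 A_51_P254855: taggctgttggaATTTAcgcataaagcaga
Ptgs2 A_52_P224760: ctgaagaattgctttcttacttaaaaacaa
Searched as these 5 letters on the transcript strand alone, ATTTA was held by 1 of the 18 probes, against 3770 of all 41174 probes (9.16%). The probes of the 10 genes had a median of 42.5% G and C, against 40% over all probes.

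Levels are log2 signals relative to the 75th percentile of the same array, so that 0 is a signal at that percentile, and they are compared only within a probe. That percentile lay between 1408 and 2207 intensity units on the hypothalamus arrays and between 1131 and 1644 on the eye arrays, and 67.9 to 75.6% and 71.4 to 80.7% of probes were well above background there. The precision of each value is set by how many arrays a group has. The tissue labels were matched by marker genes: all 8 markers of rods and cones and all 8 of lens were well above background in the eye, while Opn1sw, Mip and Lim2 were not on any hypothalamus array, and all 11 hypothalamic markers were detected in the hypothalamus but Pmch was not in the eye. The anterior pituitary list, taken as the same kind of mean, lay between -4.45 and -0.70 on the WT hypothalamus arrays and between -4.28 and 3.93 on the Per3-/- ones. The value of 3.93 was that of Per3-/- replicate 1. The choroid plexus list spanned -2.55 to 1.08 and -2.48 to 1.33. Both lists thus varied from mouse to mouse within each genotype. The Per3 probe at chr4:150379256-150379315, whose place relative to the cassette is not given in the sources used here, read -3.46 in WT and -3.97 in Per3-/- hypothalamus (limma, adjusted p = 0.067) and -3.13 against -3.58 in the eye (limma, adjusted p = 1.0).

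Of the 18 probes, 14 were well above background on at least 1 array, and these covered 9 of the 10 genes. The exception was Ptgdr, the prostaglandin D2 receptor, neither of whose 2 probes rose above background on any of the 30 arrays. Probe A_52_P160481 of Ptger3 and probe A_52_P223473 of Ptger4 were below it on every array as well. In the eye the 4 probes read nearly the same value on a given array, with a spread between highest and lowest of 0.02 to 0.14 log2 units (median 0.06), so that each eye array gave 1 background value to all 4. On the hypothalamus arrays the spread was 0.07 to 2.09 (median 1.31).

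**Figure D1:**
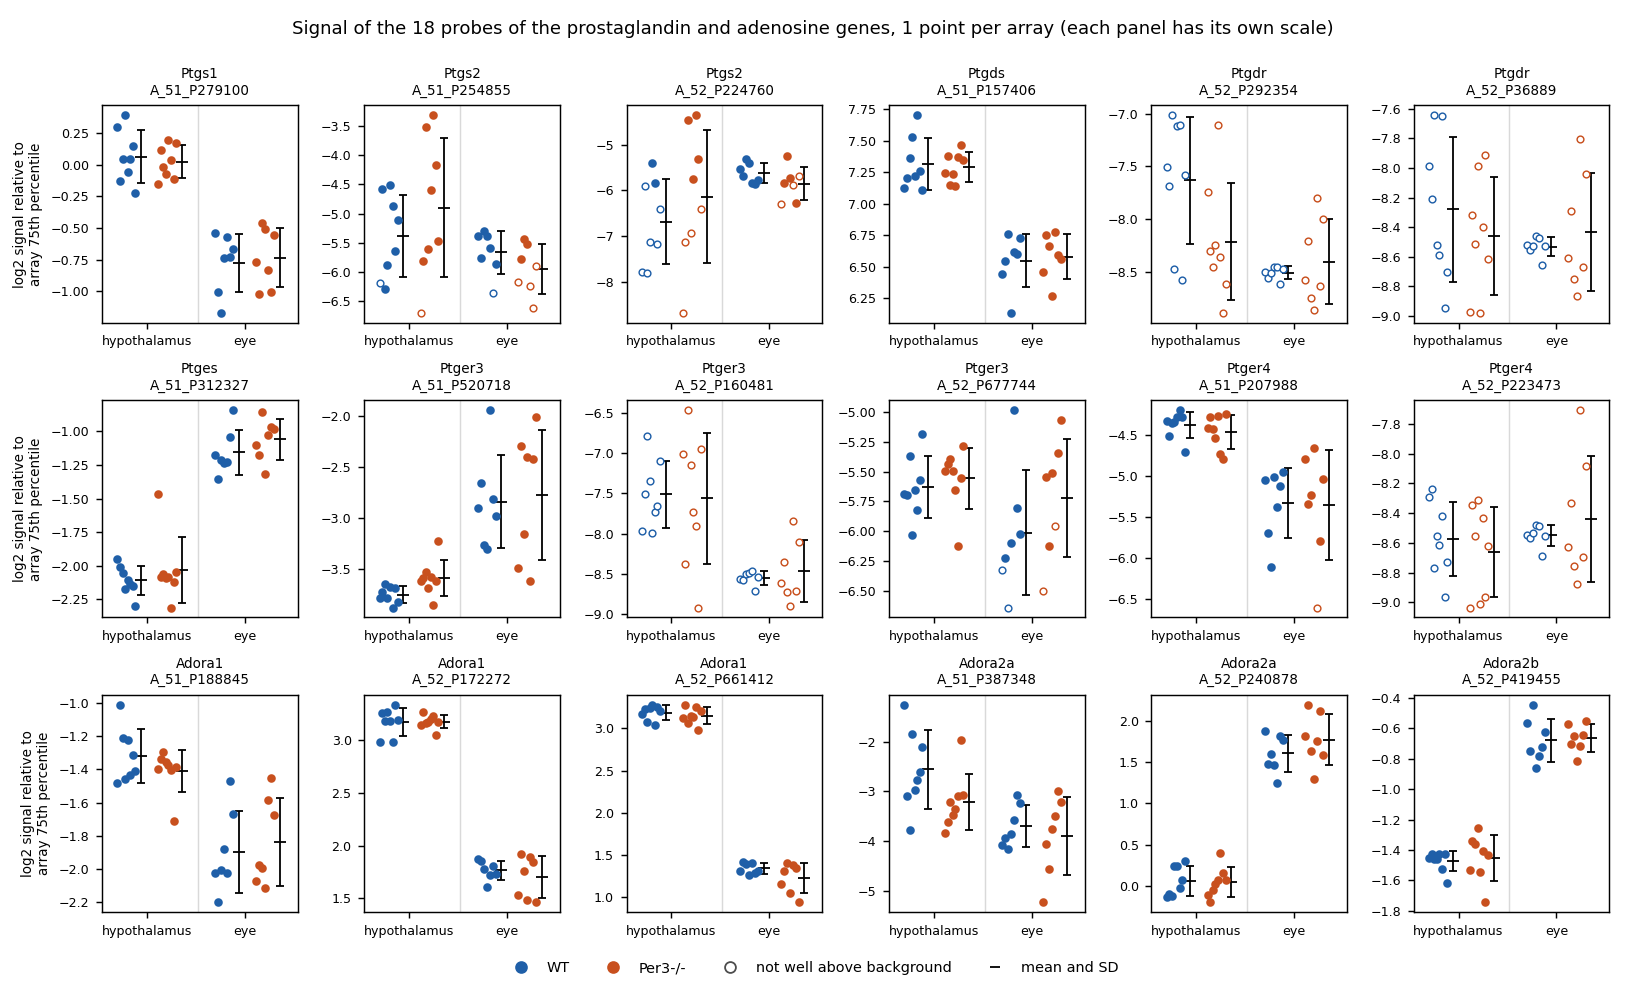
Signal of the 18 probes on each of the 30 arrays, as log2 relative to the 75th percentile of the array, with 1 panel and 1 vertical scale per probe. Filled points were well above background, open points were not, blue is WT, orange is Per3-/-, and the black bars are mean and SD; the 4 panels with open points alone are both probes of Ptgdr, Ptger3 A_52_P160481 and Ptger4 A_52_P223473.

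The first comparison asked whether the loss of Per3 changed these genes under the ultradian light cycle. In the hypothalamus none did by the test used: 0 of 18 probes were called between Per3-/- and WT (limma, adjusted p of at least 0.991), where 17 of 41174 probes (0.0413%) were called over the array. At an unadjusted p under 0.05 it was 1 of 18, against 2.82% of all probes. The array ranges of the genotypes were separate for 0 of 18 probes, against 0.0437% of all. The median difference of the 14 detected probes was -0.0045, beside -0.01 for all probes, and 7 of the 14 lay above 0 and 7 below.

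In the eye 0 of 18 probes were called as well (limma, adjusted p of 1.0), against 0.0194% of all probes. No probe of the 18 had an unadjusted p under 0.05, against 1.8% of all, and the lowest was 0.174. The genotypes' ranges were separate for 0 of 18, against 0.0704% of all. Differences ran from -0.29 to 0.29, with a median of 0.02 over the detected probes. A difference that misses the threshold does not show equal levels, and the intervals below say how large a change these arrays would leave room for.

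**Figure D2:**
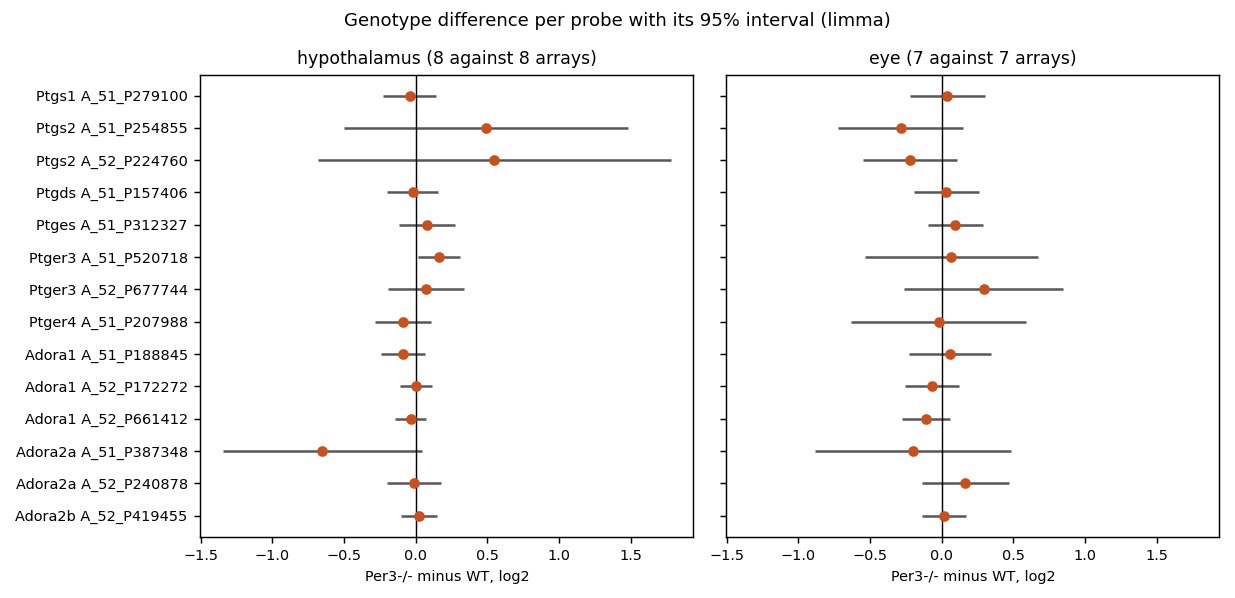
Difference between Per3-/- and WT mice for the 14 detected probes, in log2 units, with its 95% interval from limma, in the hypothalamus (8 against 8 arrays) and in the eye (7 against 7). The interval is narrow for Ptgds (-0.20 to 0.15 in the hypothalamus) and the Adora1 and Adora2b probes and widest for the 2 probes of Ptgs2 in the hypothalamus, and only that of Ptger3 A_51_P520718 in the hypothalamus leaves out 0.

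Of the enzymes, Ptgs1, the constitutive cyclooxygenase, was detected on all 30 arrays. In the hypothalamus its level was 0.06 ± 0.21 in WT (SD, n = 8) and 0.02 ± 0.13 in Per3-/- mice (n = 8), and in the eye -0.78 ± 0.23 and -0.74 ± 0.23 (n = 7 each). The genotypes overlapped throughout in both tissues, and the differences of -0.04 and 0.04 were smaller than the SDs.

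Ptgs2, the inducible cyclooxygenase, was the most variable of the detected genes in the hypothalamus. On probe A_51_P254855 the WT arrays ran from -6.29 through a median of -5.38 to -4.51, and the Per3-/- arrays from -6.70 through -5.03 to -3.31. The Per3-/- arrays thus spanned a 10.5-fold range of signal that reached past the WT range on both sides, with 3 arrays above every WT array and 1 below. The mean difference was 0.49 (95% interval -0.50 to 1.48, limma, adjusted p = 0.991; exact two-sided permutation test, unadjusted p = 0.332), and it lay above 0 on 3 of the 4 slides. Leaving out 1 array gave 0.26 (without Per3-/- replicate 6) to 0.75 (without Per3-/- replicate 1). Normexp background correction, which models the background afresh from the raw signals, gave 0.15, with the median of all probes at -0.08.

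The second probe of Ptgs2 read the same message in step with the first. Deviations from the group means correlated at r = 0.987 over the 16 hypothalamus arrays, and at r = 0.81 over the 14 eye arrays. Its difference in the hypothalamus was 0.55 (95% interval -0.68 to 1.78), although it was well above background on 6 of 16 arrays only. Without the same arrays it ran from 0.29 to 0.91, and after normexp it was 0.028. The spread between mice is therefore shared by 2 separate probes, the first of them printed as 10 spots on each array.

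In the eye the Ptgs2 levels lay close together. On A_51_P254855 they ran from -6.36 through -5.59 to -5.30 in WT and from -6.62 through -5.90 to -5.44 in Per3-/- mice. The Per3-/- mean was lower on all 4 slides for both probes, with differences of -0.29 (95% interval -0.72 to 0.15) and -0.22 (-0.55 to 0.11), and the ranges overlapped. Of the 6 pairs of same-numbered eye arrays the Per3-/- one was lower in 6 on the first probe and in 4 on the second, and with the replicate number as a block the differences were -0.20 and -0.13 (limma, adjusted p = 0.999 for both). After normexp both turned to 0.28, where the median difference of all probes in the eye was itself 0.18. The genotype effect in the eye minus that in the hypothalamus was -0.80 on each probe (95% interval -1.89 to 0.30 on the first; limma, adjusted p = 1.0), so a difference between the tissues was not shown.

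**Figure D3:**
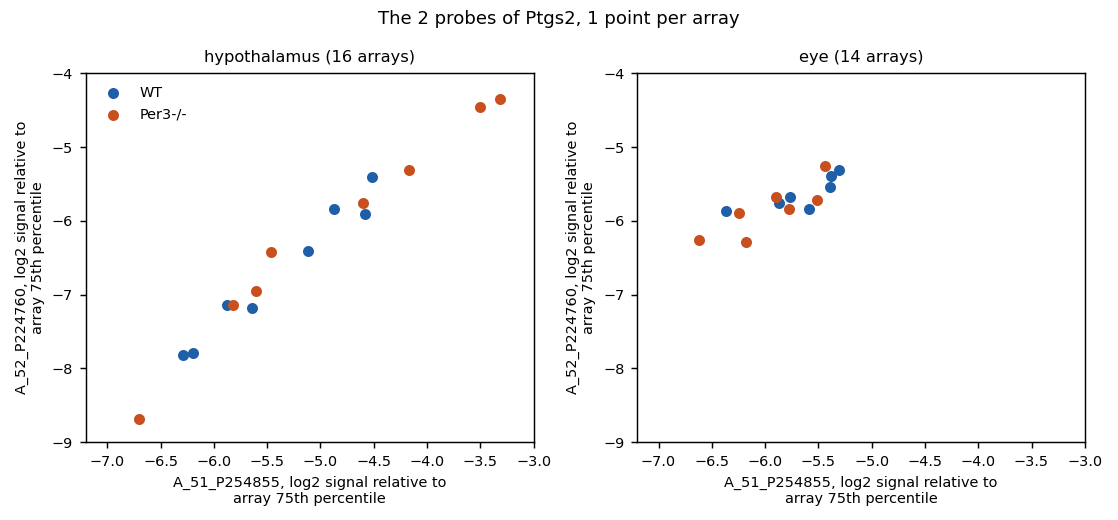
Levels of the 2 probes of Ptgs2 against each other, as log2 signal relative to the 75th percentile of the array, 1 point per array, in the hypothalamus (left) and the eye (right) on the same axes. The hypothalamus points lie along a line from about the lowest Per3-/- array at -6.70 to the highest at -3.31 on the first probe, while the eye points stay between -6.62 and -5.30.

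Neuronal activity is known to induce Ptgs2 along with the immediate early genes, so its level was set beside a list of them. Over the 16 hypothalamus arrays, within genotype, the first probe and the mean level of the list of 13 immediate early genes had r = 0.42 (permutation p = 0.188) and a rank correlation of 0.54 (permutation p = 0.045), with adjusted p = 0.542 and 0.452 among 432 relations computed. Without the 2 arrays farthest from the median of the list r was 0.36. None of the 13 genes on 18 probes of that list was called between genotypes in either tissue by limma, nor had any an unadjusted p under 0.05. Some marker lists lay further from 0 with the first Ptgs2 probe in the hypothalamus. Rods and cones had r = 0.55 (permutation p = 0.017, adjusted p = 0.326) and the hypothalamic list -0.523 (permutation p = 0.068, adjusted p = 0.44). The choroid plexus list had r = 0.481 (permutation p = 0.075, adjusted p = 0.462).

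Ptgds makes prostaglandin D2 and is also a carrier protein of the meninges and choroid plexus. In the hypothalamus its level ran from 7.11 through 7.24 to 7.70 in WT and from 7.14 through 7.29 to 7.47 in Per3-/- mice. The Per3-/- range fell wholly inside the WT range. The ratio of Per3-/- to WT was 0.985, with a 95% interval of 0.872 to 1.11, and in the eye 1.02 (0.874 to 1.20).

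Ptges, the inducible prostaglandin E2 synthase, gave -2.11 ± 0.11 in WT and -2.03 ± 0.24 in Per3-/- hypothalamus (SD, n = 8 each). A single array set the larger SD: Per3-/- replicate 1 read -1.47, and the next highest Per3-/- array -2.05. That array was the one with the anterior pituitary list at 3.93, and without it the difference of 0.08 became -0.0046. Over the 16 arrays Ptges and the pituitary list had r = 0.77 (permutation p = 0.082, adjusted p = 0.469) and a rank correlation of 0.31 (permutation p = 0.236, adjusted p = 0.690), and r fell to 0.05 without the 2 arrays farthest from the list's median, so the relation rests on them. The hypothalamic marker list had r = 0.838 with Ptges (permutation p = 0.019, adjusted p = 0.326), and 0.53 without its 2 farthest arrays. The neuron list had r = -0.627 (permutation p = 0.028, adjusted p = 0.326) and the endothelium list -0.626 (permutation p = 0.0089, adjusted p = 0.275). In the eye the levels were -1.16 ± 0.17 and -1.06 ± 0.15 (n = 7 each), which overlapped.

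Among the prostaglandin receptors, Ptger3, an inhibitory receptor for prostaglandin E2 known for its part in fever, gave the lowest unadjusted p of the 18 probes in the hypothalamus. Probe A_51_P520718 ran from -3.88 through -3.75 to -3.64 in WT and from -3.86 through -3.61 to -3.23 in Per3-/- mice. Of the 8 Per3-/- arrays 6 lay above every WT array, and the Per3-/- mean was higher on all 4 slides. The difference was 0.16 (95% interval 0.01 to 0.31, a 1.12-fold ratio) with an unadjusted p of 0.033 by limma, 0.022 by the exact two-sided permutation test and 0.032 when labels were exchanged within slides, and the limma p adjusted over all probes was 0.991. With quantile normalization the unadjusted limma p was 0.083, and after normexp background correction the difference was 0.02.

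A further probe of Ptger3, A_52_P677744, differed by 0.07 (interval -0.19 to 0.34) in the same tissue. In the eye both probes were spread over a wider range. The first ran from -3.30 through -2.90 to -1.94 in WT and from -3.62 through -2.42 to -2.01 in Per3-/- mice, and the 2 probes rose and fell together over the 14 arrays (r = 0.861). On A_52_P677744, which was well above background on 10 of those 14 arrays, the level followed the mean of the list of 8 skeletal muscle genes, with r = 0.88 (permutation p = 4e-05, adjusted p = 0.0086) and a rank correlation of 0.846 (permutation p = 0.00027, adjusted p = 0.058). This held within slides (r = 0.863) and without the 2 farthest arrays (0.815) but r was 0.504 with quantile normalization and -0.17 after normexp background correction, and the first probe had r = 0.738 (permutation p = 0.0021, adjusted p = 0.119). The muscle list itself varied from 4.31 to 5.54 on the WT and from 4.47 to 5.63 on the Per3-/- eye arrays.

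Ptger4, a stimulatory receptor for prostaglandin E2, read -4.37 ± 0.16 in WT and -4.46 ± 0.21 in Per3-/- hypothalamus (SD, n = 8 each) on its detected probe. In the eye it read -5.33 ± 0.43 and -5.35 ± 0.67 (n = 7 each). The genotypes overlapped in both tissues.

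For Ptgdr no level can be given, only that the signal was not well above background. Its probe A_52_P292354 differed by -0.58 between Per3-/- and WT hypothalamus, with an unadjusted limma p of 0.050 and a two-sided exact permutation p of 0.069, or 0.026 when exchanged within slides. The genotype effects in the 2 tissues differed on that probe by 0.69 at an unadjusted p of 0.043 (limma, adjusted p = 1.0). Both are differences between background signals, and the other Ptgdr probe, which read -0.18, had r = 0.07 with it over the same arrays. Of the 18 probes it was the 1 probe with an unadjusted p under 0.05 for the difference of effects, against 2.21% of all probes, and 0 of 18 were called, against 0.00486%.

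The probes of the adenosine receptors were detected on all 30 arrays. Adora1 is the widespread inhibitory receptor. On A_52_P172272 it read 3.17 ± 0.13 in WT and 3.18 ± 0.06 in Per3-/- hypothalamus (SD, n = 8 each), a difference of 0.0030 with a 95% interval of -0.11 to 0.12. On A_52_P661412 the levels were 3.19 ± 0.09 and 3.15 ± 0.10 (n = 8 each). The coding probe A_51_P188845 differed by -0.09, and its lowest array, Per3-/- replicate 7 at -1.71, stood apart from the next at -1.41. In the eye the differences of the 3 probes were -0.07, -0.11 and 0.06, each with an interval that includes 0.

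Adora2a, the stimulatory receptor that is most abundant in striatal neurons, was read differently by its 2 probes. The coding probe gave 0.06 ± 0.18 in WT and 0.04 ± 0.18 in Per3-/- hypothalamus (SD, n = 8 each), a difference of -0.01 with an interval of -0.20 to 0.18. The probe further along, A_51_P387348, ran from -3.77 through -2.69 to -1.26 in WT and from -3.84 through -3.29 to -1.97 in Per3-/- mice. The Per3-/- mean was lower there on all 4 slides, and 1 Per3-/- array lay below every WT array. The difference was -0.65 (95% interval -1.34 to 0.04, limma, unadjusted p = 0.063, adjusted p = 0.991; exact two-sided permutation test, p = 0.078). The highest Per3-/- array, replicate 7 at -1.97, stood apart from the next at -3.07, and leaving it out gave -0.83, while leaving out the highest WT array, replicate 1 at -1.26, gave -0.47.

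The 2 Adora2a probes had r = 0.35 with each other over the 16 hypothalamus arrays, and the genes that followed them were different. The 3 genes most like A_51_P387348, by Pearson's r of deviations from the group means, were Drd1 (r = 0.938), Arpp21 (0.933) and Gphn (0.896). Drd1 and Arpp21 are known from the medium spiny neurons of the striatum. The marker list of 9 striatopallidal genes had r = 0.539 with A_51_P387348 (permutation p = 0.057, adjusted p = 0.405), and 0.135 without the 2 farthest arrays. The immediate early gene list had r = 0.562 with it (permutation p = 0.019, adjusted p = 0.326), and 0.284 without the 2 farthest arrays. With the coding probe, Drd1 had r = 0.255 and Arpp21 0.289. Drd1 itself read -2.62 ± 0.37 in WT and -2.98 ± 0.20 in Per3-/- hypothalamus (SD, n = 8 each; exact two-sided permutation test, unadjusted p = 0.024), and Arpp21 0.78 ± 0.59 and 0.44 ± 0.47 (exact two-sided permutation test, unadjusted p = 0.212). Both genes were singled out after their likeness to the probe was seen. The part of this in the Adora2a difference was not tested.

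**Figure D4:**
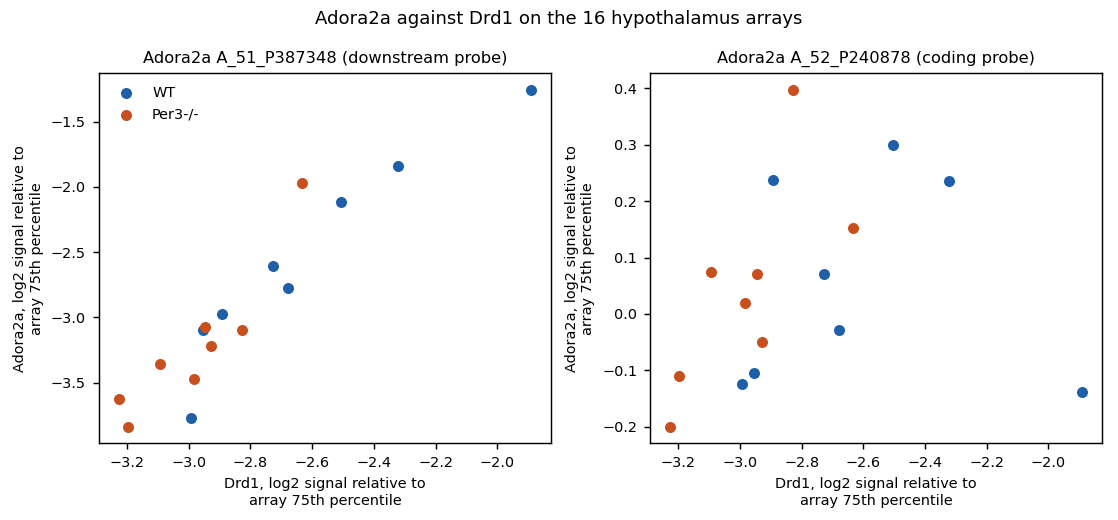
Level of the 2 Adora2a probes against that of the dopamine receptor gene Drd1 on the 16 hypothalamus arrays, both as log2 signal relative to the 75th percentile of the array, blue for WT and orange for Per3-/-. The points of A_51_P387348 (left) rise with Drd1 (r = 0.938 within genotype) and those of the coding probe A_52_P240878 (right) are scattered (r = 0.255).

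Adora2b, a low-affinity adenosine receptor, read -1.47 ± 0.06 in WT and -1.45 ± 0.15 in Per3-/- hypothalamus (SD, n = 8 each). In the eye it read -0.68 ± 0.14 and -0.66 ± 0.09 (n = 7 each). The differences of 0.02 and 0.01 had 95% intervals of -0.11 to 0.15 and -0.14 to 0.17.

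Rank products, the second approach of the methods, was run on the hypothalamus as well and called 2 of the 18 probes, Adora2a A_51_P387348 (share of false positives 0.042, lower in Per3-/-) and Ptgs2 A_52_P224760 (0.037, higher), against 0.724% of all probes. It compares ranks between pairs of arrays without weighing the spread of each probe. In the eye it called 0 of the 18, against 0.17% of all probes.

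The second comparison set the tissues side by side in the mice of both genotypes. Eye and hypothalamus arrays lay on different slides, so that tissue and slide cannot be told apart, and the median of all probes was itself 0.19 higher in the eye. Of the 18 probes 4 were called higher in the eye, where 47.9% of all probes were, and 10 lower, against 35.2% of all (limma, each mouse a random block). Among the 14 detected probes the counts were 4 and 8. The ranges of all eye and all hypothalamus arrays were separate for 7 of 18, against 48.9% of all probes.

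**Figure D5:**
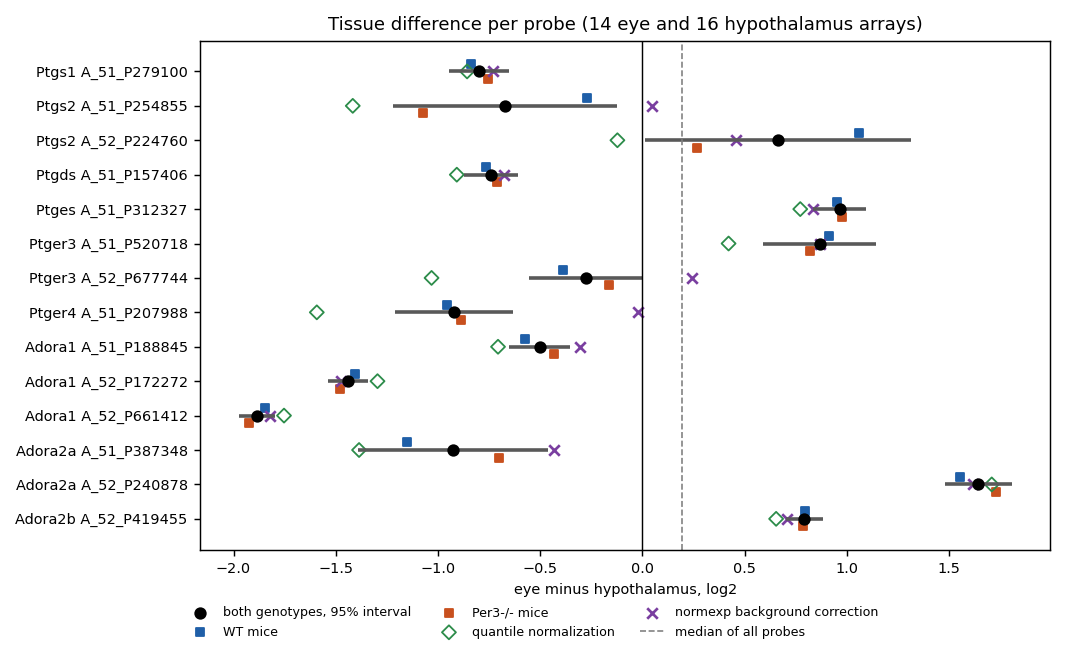
Eye minus hypothalamus for the 14 detected probes in log2 units, with 14 eye and 16 hypothalamus arrays. Black points with 95% intervals are from limma over both genotypes, squares are the values of WT and Per3-/- mice alone, diamonds and crosses those with quantile normalization and normexp background correction, and the dashed line is the median of all probes at 0.19; the 2 probes of Adora2a lie on opposite sides of 0 (1.64 and -0.93) and the Ptgs2 probes and Ptger3 A_52_P677744 change side with the processing.

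Adora1 was lower in the eye on all 3 probes. The 14 eye arrays ran from 1.46 to 1.93 on A_52_P172272 and the 16 hypothalamus arrays from 2.98 to 3.34, and on A_52_P661412 from 0.94 to 1.41 and from 2.98 to 3.28. Neither pair of ranges overlapped, and the differences were 2.72-fold and 3.69-fold. The coding probe A_51_P188845 differed less, by -0.50 (interval -0.65 to -0.35), and its ranges overlapped.

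Adora2a went in opposite directions on its 2 probes. On the coding probe the eye arrays lay between 1.25 and 2.20 and the hypothalamus arrays between -0.20 and 0.40, 3.12-fold higher in the eye (difference 1.64, 95% interval 1.48 to 1.81). On A_51_P387348 the eye was lower, with a difference of -0.93 (interval -1.39 to -0.46) in 14 of the 14 mice with both tissues. Both calls kept their sign with quantile normalization (1.71 and -1.39) and normexp (1.62 and -0.43). Adora2b was 1.73-fold higher in the eye, with ranges that did not overlap (-0.86 to -0.44 against -1.74 to -1.26).

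Of the enzymes, Ptgds was 1.67-fold lower in the eye, where it ran from 6.13 to 6.77 against 7.11 to 7.70, and Ptgs1 was 1.74-fold lower (-1.17 to -0.46 against -0.23 to 0.39). Ptges was 1.95-fold higher (-1.36 to -0.84 against -2.31 to -1.47). In each of the 3 genes the tissues did not overlap and all 14 mice with both tissues gave the same direction. Ptgs2 had no settled direction: eye minus hypothalamus was -0.67 on one probe (limma, adjusted p = 0.022) and 0.66 on the other (adjusted p = 0.056), and after normexp background correction the first became 0.05.

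Of the receptors for prostaglandin E2, Ptger3 was higher in the eye on A_51_P520718 in 14 of 14 mice (difference 0.87, interval 0.59 to 1.14), although the lowest eye array at -3.62 lay inside the hypothalamus range of -3.88 to -3.23. Its probe A_52_P677744 differed by -0.28 (adjusted p = 0.063). Ptger4 was lower in the eye, with a difference of -0.92 (interval -1.21 to -0.64), in 14 of 14 mice, but the difference was -0.02 after normexp background correction.

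The genes around these members were taken from lists of the 2 pathways. Between genotypes 1 gene of them was called, Pla2g2d, a secreted phospholipase A2 that can free arachidonic acid, among 14 genes on 24 probes of prostanoid synthesis. Over the array 0.0413% of probes were called in the hypothalamus. The lists were chosen with earlier results of these data known, so this count is not a result about the pathway. In the hypothalamus its WT arrays ran from -5.40 through -5.16 to -4.74 and its Per3-/- arrays from -4.66 through -4.49 to -4.08. All 8 Per3-/- arrays lay above all 8 WT arrays, where 0.0437% of all probes had separate ranges, and the Pla2g2d probe was well above background on each array. The difference was 0.68 (95% interval 0.48 to 0.88, 1.60-fold; limma, adjusted p = 0.011), and the exact two-sided permutation p of 0.000155 is the smallest that 8 against 8 arrays can give.

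In the eye Pla2g2d differed by 0.27 (limma, adjusted p = 1.0), and the ranges overlapped. After normexp background correction the hypothalamic difference was 0.19 (adjusted p = 0.437), and with the replicate number as a block it stayed at 0.68 with an adjusted p of 0.178. The probe lies at chr4:138337867-138337926, on the chromosome that carries Per3. Its neighbour Pla2g5, at chr4:138355365-138355424, differed by 0.51 in the hypothalamus (limma, adjusted p = 0.991). The part of the position in these values was not tested.

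None of the genes in the other 6 lists was called between genotypes by limma in either tissue: the prostanoid receptors outside the 10 genes (6 genes), prostanoid transport and breakdown (9), adenosine metabolism (13), adenosine transport and the remaining receptor (7), signalling below adenosine receptors (14) and the immediate early genes (13). At an unadjusted p under 0.05 were 2 of their 114 probes in the hypothalamus (against 2.82% of all probes) and 1 in the eye (against 1.8%), which are smaller shares than those over the array. In the prostanoid synthesis list 2 hypothalamus probes and 1 eye probe passed that threshold. Rank products called 2 of the 15 probes of transport and breakdown in the hypothalamus, against 0.724% of all, and 1 of the 25 of adenosine metabolism in the eye, against 0.17%.

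Between tissues the lists are counted by probe, to be read against the 47.9% of all probes called higher in the eye and the 35.2% called lower. Of the 15 probes of prostanoid transport and breakdown 13 were higher and 0 lower, led by Ptgr1, which inactivates prostaglandins, at 6.75 log2 units above the hypothalamus, and Akr1c18 at 5.55, which was well above background on 2 of the 16 hypothalamus arrays. Of the 9 probes of the 6 other prostanoid receptors 8 were higher and 0 lower, among them the prostacyclin receptor Ptgir (4.03) and the prostaglandin F receptor Ptgfr (3.13), which were above it on 7 and 3 of those arrays. Of the 24 synthesis probes 17 were higher and 5 lower, with Pla2g5 at 5.91 and Hpgds, the haematopoietic prostaglandin D2 synthase, at 3.43. The list medians were 0.92, 1.71 and 0.95, beside 0.19 for all probes, and no test of a list was made.

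Of the 36 probes of signalling below adenosine receptors 27 were lower in the eye and 6 higher, and the list median was -1.40. Gnal, the G protein that couples Adora2a in the striatum, was at -4.35, with 9 of 14 eye arrays above background, and Pde10a, a striatal phosphodiesterase, at -4.33 log2 units. Of the 25 probes of adenosine metabolism 13 were higher and 10 lower, with the median at 0.38. Nt5e, the ectoenzyme that makes adenosine outside cells, was 4.24 higher in the eye and Acpp, which can do the same, 5.05 higher, with 13 of 16 hypothalamus arrays above background. Of the 11 probes of adenosine transport and the remaining receptor 6 were higher and 4 lower, with the median at 0.12. The nucleoside carrier Slc28a3 was 5.33 higher on A_52_P610987, and at least 9.15-fold higher on A_51_P147572, for which none of the 16 hypothalamus arrays rose well above background and the bound sets the eye mean against the lowest level measured above background on each of them.

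The genes most like each member were named from all probes detected on each array of a tissue, by Pearson's r of deviations from the group means, as a description of these arrays, which share slides and dissection. In the hypothalamus Ptges was closest to Aga (r = 0.946), Igsf1 (0.924) and Mfap2 (0.92), Ptger4 to the Adcy7 probe A_52_P586141 (0.919), Ptgs1 to Caln1 (0.896), Ptger3 to Gga3 (0.859) and Adora2b to Nuf2 (0.928). The coding probe of Adora2a was closest to Gm11938 (0.969) and Plcg1 (0.964). Ptgds had no gene above 0.815, the value for Coq8a, and Slc22a6, a transporter of the leptomeninges, was the third at 0.789. The leptomeninges list as a whole had r = 0.557 with Ptgds (permutation p = 0.082, adjusted p = 0.469), and -0.13 without the 2 farthest arrays. The choroid plexus list had r = 0.162 with it (permutation p = 0.561, adjusted p = 0.836). Adora1 reached 0.856 with Adam11.

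In the eye Ptger3 was closest to Dgat2 (0.906) and Pnpla2 (0.904), which make and break down triglycerides, and to Tbx18 (0.894). Adora1 was closest to Tmem119 (0.915), Bdh2 (0.906) and Myoc (0.886), a gene of the trabecular meshwork. Ptges was closest to Mfsd5 (0.953) and Adora2b to Cenpa (0.954). The second Adora2a probe was closest to Ppargc1a (0.922), which fell to 0.658 within slides.

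Of the 432 relations between a detected member probe and a marker list, 208 in the hypothalamus and 224 in the eye, 3 had an adjusted p under 0.05, all in the eye. Beside the Ptger3 relation these were the coding probe of Adora1 and the second Adora2a probe with the list of 9 detected striatopallidal genes. For Adora1 r was 0.956 (permutation p = 2e-05, adjusted p = 0.0086) and the rank correlation 0.925 (permutation p = 3e-05, adjusted p = 0.013), and r was 0.971 within slides and 0.935 without the 2 farthest arrays. In the eye that coding probe had r = 0.197 with A_52_P172272 and 0.005 with A_52_P661412, which had r = 0.82 with each other. Neither of these other Adora1 probes is among the 3 relations, so this relation is that of the coding probe only. For Adora2a r was 0.829 (permutation p = 0.0002, adjusted p = 0.029) and the rank correlation 0.833 (permutation p = 0.00055, adjusted p = 0.079), but r was 0.155 within slides, so it did not hold there. The lists and the probes share the arrays' signal and normalization, whose part was not tested.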

How the data were processed

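RNA of 30 samples was hybridised by the authors to 1-colour Agilent 60-mer arrays, and the deposited scanner files hold spot intensity on a linear scale from Feature Extraction 10.7.1.1, which had subtracted background. Per the file headers no normalization between arrays had been applied. The deposited value table holds log2 values of the same arrays with each probe shifted by its own constant (r = 1 against the scanner values after centring each probe), and served as an alternative. Outlier spots and control spots were left out, spots of 1 probe were averaged, and the 75th percentile over 41174 probes was subtracted from each array's log2 signal.

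Genotypes were compared within tissues with limma 3.58.1 in R 4.3.3 (lmFit, eBayes), without a block, and tissues over all 30 arrays with the mouse as random block (correlation 0.059), and p-values were adjusted by Benjamini-Hochberg over all 41174 probes with a threshold of 0.05. Exact permutation tests were two-sided, over all arrangements or within slides, and relations used 100000 permutations within genotype in Python 3.11.15 with scipy 1.17.1. Within a tissue each array is a separate mouse. Between tissues, arrays of the same genotype and replicate number were taken as 1 mouse, which the labels do not state. Over all probes the deviations of such arrays from their group means had r = -0.123 to 0.159. The 8 slides each held both genotypes of 1 tissue. Scripts were tested on simulated data.

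All probes of the 10 genes are reported. Of other lists, probes called between genotypes and the 2 of largest difference per list and comparison were eligible for naming, and of likeness the 3 closest genes. The members and lists were chosen with earlier results of these data known. Replicate numbers are shared by the genotypes. In the eye every pair of same-numbered arrays deviated together (r = 0.109 to 0.627), while in the hypothalamus r was -0.0293 to 0.315. Same-numbered arrays also shared a slide, and differently numbered arrays were not compared. These values therefore cannot show whether the numbers mark pairs, and the main comparisons did not take them as pairs. Gene names came from the array files, updated through RefSeq by accession for 26918 probes, by symbol for 5082 and by synonym for 817, and kept for 8357. Alternatives were quantile normalization, normexp background correction with an offset of 50, a filter on dim probes, the slide or the replicate number as a block, the deposited values, the methods' t-test and rank products, and leaving out each array.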

Additional observations from a re-analysis of the deposited data

Results flagged for a closer look

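In 5 of the 72 groups of arrays tested, 1 array stood apart from its group by its gap over the group's range, where chance alone marks about 1 in 20 groups. The Adora1 coding probe A_51_P188845 read -1.71 on Per3-/- hypothalamus replicate 7, and the next lowest read -1.41. Ptges read -1.47 on Per3-/- hypothalamus replicate 1 and -2.05 on the next, and the anterior pituitary list on that array was at 3.93. Adora2a A_51_P387348 read -1.97 on Per3-/- hypothalamus replicate 7 and -3.07 on the next highest, and the immediate early gene list was at -0.43 there and at most -1.31 on the other Per3-/- arrays. Ptger3 A_52_P677744 read -6.13 on Per3-/- hypothalamus replicate 6 and -5.66 on the next lowest. Ptger4 A_52_P223473, which was below background, read -8.69 on WT eye replicate 7 and -8.57 on the next. The part of the lists in these values was not tested.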

How the results depend on the processing

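The count of probes called between genotypes stayed at 0 of 18 in both tissues, and that of the difference of effects at 0, under each alternative and without each array in turn, except for rank products in the hypothalamus, which called 2. With exact tests of single probes, 1 of 18 hypothalamus probes had an unadjusted p under 0.05, 2 when labels were exchanged within slides, and 1 to 2 without 1 array, and in the eye 0 to 1. Of the tissue calls, 14 of 18 in the main comparison, the 10 lower in the eye became 6 after normexp background correction, as Ptger4 went to -0.02, Ptgs2 A_51_P254855 to 0.048 and 2 probes below background, Ptgdr A_52_P292354 and Ptger3 A_52_P160481, to 0.258 and 0.184. All-probe medians of eye minus hypothalamus were 0.19, -0.07 with quantile normalization and 0.37 with normexp, so differences are best read against those. With the tissues, Ptgs2 A_52_P224760 reversed to -0.12 (quantile) and Ptger3 A_52_P677744 to 0.24 (normexp), and its relation with skeletal muscle to -0.17 (normexp; 0.504 with quantile).

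Single genotype differences that turned sign were all uncalled. With normexp in the hypothalamus, Adora2b gave -0.00124 and Ptger3 A_52_P677744 -0.14, and in the eye Ptgds -0.055, Ptger4 0.39, Adora2a A_51_P387348 0.14 and the Ptgs2 probes 0.28 and 0.28. With quantile normalization Ptgds gave 0.016 in the hypothalamus and Ptger4 0.00261 in the eye. Leaving out 1 array moved the hypothalamic differences from -0.051 to 0.034 for Ptgds, -0.084 to 0.00382 for Ptgs1, -0.00456 to 0.12 for Ptges, -0.024 to 0.026 for Adora1 A_52_P172272, -0.062 to 0.023 for Adora2a A_52_P240878 and -0.00472 to 0.065 for Adora2b. In the eye the ranges were -0.0365 to 0.085 for Ptgds, -0.00507 to 0.13 for Adora1 A_51_P188845, -0.15 to 0.187 for Ptger4, -0.026 to 0.088 for Ptgs1, -0.35 to 0.022 for Adora2a A_51_P387348, -0.059 to 0.22 for Ptger3 A_51_P520718 and -0.016 to 0.053 for Adora2b.

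With the replicate number as a block, 0 of 18 probes were called in either tissue, and over all probes the calls went from 3 higher and 14 lower to 1 and 4 in the hypothalamus and from 0 and 8 to 0 and 1 in the eye. Pla2g2d lost its call under that block (adjusted p = 0.178) and with normexp (adjusted p = 0.437), and kept it in the other alternatives and without each array. The cause of these changes was not tested. Probes near background, Ptgs2 above all, limit what the arrays can resolve.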
